A study of Mus musculus with 20 samples.

Results

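A set of 42 genes of antioxidant defence and glutathione metabolism were followed in the mouse aorta across 10 doses of proton and gamma radiation. They were taken by gene symbol from the deposited table of sense-strand gene counts, with a mean count of 5 or more over the 20 mice as the only further condition. All 42 listed genes had 1 row each and passed, among 13124 genes of 21078 in the table that did so. The genes made up 9 classes by the role of their product, namely 3 superoxide dismutases, 6 genes of catalase and glutathione peroxidases, 7 of peroxiredoxins and sulfiredoxin, 8 of thioredoxins, their reductases and glutaredoxins, 4 of glutathione synthesis and recycling, 8 glutathione transferases, 3 quinone and heme enzymes, the regulator pair NRF2 and KEAP1, and 1 ascorbate transporter.

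RNA-seq of polyA RNA was performed on the aorta of 20 wildtype adult male C57BL/6 mice aged 10 to 12 weeks, killed 4 hours after whole-body irradiation. Of these, 10 mice received high energy protons (Proton) and 10 received gamma rays (Gamma), at 0, 5, 10, 25, 50, 75, 100, 125, 150 and 200 cGy, with 1 mouse per dose and radiation type. The mice at 0 cGy were sham-irradiated. Protons came from an accelerator beam and gamma rays from a cesium source, so radiation type and irradiator cannot be told apart, and no dose had a replicate within a type.

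Ionizing radiation splits water and leaves superoxide and hydrogen peroxide, which cells remove in steps. Superoxide dismutases turn superoxide into hydrogen peroxide, which catalase, the glutathione peroxidases and the peroxiredoxins reduce, with glutathione or thioredoxin as electron donors. The transcription factor NRF2 (encoded by Nfe2l2) is held by KEAP1 in resting cells and, when released by oxidants, binds antioxidant response elements in many of these genes. In the arterial wall, extracellular superoxide dismutase, made mainly by smooth muscle, is a leading scavenger of superoxide.

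The libraries had been resampled to a common depth and held 6051657 to 6058006 counts each. The 3 genes taken as a check of the irradiation, Cdkn1a, Mdm2 and Aen, rose with dose after both types, Cdkn1a from 345 counts in the Proton mouse and 366 in the Gamma mouse at 0 cGy to 2777 and 2937 at 200 cGy. Of 6 smooth muscle markers, none was at 0 in any mouse, and their summed count was 265190 to 322784 in 9 Proton mice and 238267 to 324494 in the Gamma mice. The Proton mouse at 75 cGy stood apart, with a smooth muscle sum of 160256 and all 6 of these markers below the other 9 Proton mice. Its 8 brown fat markers summed to 15673 counts against 1954 to 5257 in the other Proton mice, with 6 above all of these (Ucp1 at 7108 counts), Dio2 within their range (484) and Prdm16 below it (688). Its 7 markers of white fat and all adipocytes were all above the other Proton mice and summed to 44149 against 3112 to 10452. Its 4 cardiac muscle markers summed to 15933 against 94 to 323. The Gamma mouse at 100 cGy had the second highest brown fat sum, 6606 against 2165 to 2621 in the other Gamma mice, and the second highest adipocyte sum, 16401 against 3304 to 8030, with cardiac markers at 64. Its Prdm16 count (742) was the lowest of the Gamma mice, and its other brown fat markers were the highest. The main results below are therefore given with and without the Proton mouse at 75 cGy, and values include it unless stated. In bulk tissue, fewer cells of a type and less RNA per cell cannot be told apart.

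The genes were expressed over a broad range, and the top 4 by count per kilobase came from 3 of the classes. Levels between genes were compared as mean count per kilobase of the longest coding transcript over the 20 mice. Gstm1, a mu-class glutathione transferase, led with 2202 counts per kb, followed by Gpx1, the cytosolic glutathione peroxidase, with 2173, Sod3, the extracellular superoxide dismutase, with 2066, and Sod1, the cytosolic copper and zinc enzyme, with 1448. Gstm1 and Gpx1 varied from mouse to mouse by more than they differed from each other. The lowest were Gsta4, an alpha-class transferase, with 28.1 counts per kb, and Hmox1, the stress-inducible heme oxygenase, with 29.9. All 42 genes together took 0.429% to 0.828% of the counts of a library, with the highest share in the Proton mouse at 75 cGy. Glutathione synthesis and recycling, which covers the subunits of glutamate-cysteine ligase (Gclc and Gclm), glutathione synthetase (Gss) and glutathione reductase (Gsr), took 0.0121% to 0.015%.

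**Figure D1:**
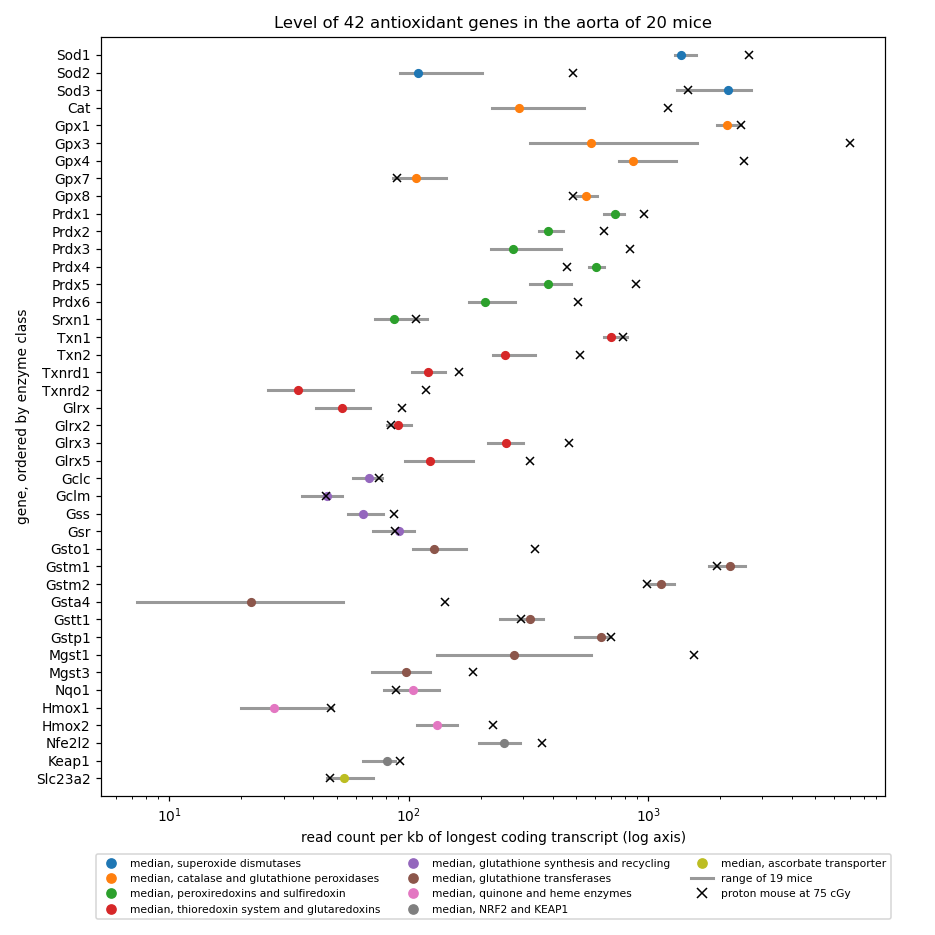
Read count per kilobase of the longest coding transcript (log axis) for the 42 genes, ordered by class. Points are medians over 20 mice, bars the range over the 19 mice without the Proton mouse at 75 cGy, and crosses that mouse, which lies beyond the bar for many genes and farthest for Gpx3.

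Apart from the Proton mouse at 75 cGy, the spread between mice was small for some of these genes and wide for others. This spread was measured over all doses at once, so it does not show whether a gene changed with dose. Over the other 19 mice the SD of the log2 normalized count was lowest for the peroxiredoxins Prdx1 (0.06) and Prdx4 (0.06), thioredoxin Txn1 (0.07) and Gpx1 (0.07). It was highest for Gpx3, the secreted plasma glutathione peroxidase (0.59), Gsta4 (0.57), the microsomal transferase Mgst1 (0.43) and Hmox1 (0.33). Gpx3 ran from 511 to 2541 counts in the Gamma mice and from 585 to 1643 in the 9 Proton mice. Gsta4 and Hmox1 had few reads, which adds counting error to their spread.

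The sequences shown next are stretches of the promoters of 6 of these genes that hold the core of the antioxidant response element, because that element is the shared link between these genes and NRF2. RefSeq windows on GRCm38.p6, from 250 bases before to 50 after a gene start, were available for 36 of the 42 genes and were searched on both strands for TGACNNNGC, where N is any base. A match was found in 7 of the 36 genes (19.4%), against 14% of 27025 genes with a window. Each stretch is written 5′ to 3′ on the strand of the gene, with the match in capitals. In all but Nfe2l2 the motif lies on the opposite strand, so its reverse complement is shown. The counts use mm9, so these coordinates are not those of the counted genes. The seventh match, in Srxn1, lay after the gene start and is not shown.
Sod1 (chr16:90220690-90220730, plus strand): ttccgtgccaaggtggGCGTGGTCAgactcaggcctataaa
Prdx1 (chr4:116685450-116685490, plus strand): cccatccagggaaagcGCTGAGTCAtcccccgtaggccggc
Txnrd1 (chr10:82859098-82859138, plus strand): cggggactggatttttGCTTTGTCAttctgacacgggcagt
Gclm (chr3:122245407-122245447, plus strand): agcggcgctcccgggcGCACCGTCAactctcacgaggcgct
Mgst1 (chr6:138140455-138140495, plus strand): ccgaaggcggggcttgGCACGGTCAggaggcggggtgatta
Nfe2l2 (chr2:75704879-75704913, minus strand): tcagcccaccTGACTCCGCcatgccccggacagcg
None of these 7 genes was called by a dose slope or trend in either radiation type. The match is a description of the letters in the window, and says nothing of binding in the aorta.

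After proton radiation, none of the 42 genes passed the test for a change with dose. This comparison asked whether expression rose or fell with dose, first as the slope of a line in edgeR's quasi-likelihood test (log2 change per 100 cGy, adjusted over 13124 genes, threshold 0.1). Among all genes 1.6% were called up and 0.16% down. The 42 slopes ran from -0.35 for Gsta4 to 0.26 for Hmox1, with a median of -0.01 against 0.00 over all genes. Of them 20 were above 0, against 6635 of 13124 over all genes. Before adjustment 2 genes had p under 0.05, Sod3 and Slc23a2, with adjusted p of 0.355 and 0.32 in edgeR. DESeq2 also called 0, as did edgeR without the mouse at 75 cGy, where 15 slopes were above 0 and the median was -0.02. Over all genes 6312 of 13124 slopes were then above 0, with a median of -0.007.

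After gamma radiation, 2 of the 42 genes passed the same test, 1 up and 1 down. Over all genes 5.44% were called up and 2.21% down, so 1 up and 1 down among 42 genes does not stand out from that background. Slc23a2, which carries ascorbate (vitamin C) into cells, rose by 0.21 ± 0.07 (SE) per 100 cGy (edgeR, adjusted p = 0.0887). Gstp1, the pi-class glutathione transferase, fell by 0.18 ± 0.06 per 100 cGy on the log2 scale (edgeR, adjusted p = 0.0981). Both stood close to the threshold, and neither passed without the Proton mouse at 10, 25 or 50 cGy or the Gamma mouse at 5, 10, 25, 50, 75, 150 or 200 cGy. Slc23a2 (ENSMUSG00000027340) lies on the minus strand at chr2:131878232-131970844 and Gstp1 (ENSMUSG00000060803) on the minus strand at chr19:4035411-4037921, in mm9. The 42 slopes had a median of 0.02 against 0.01 over all genes, and 23 were above 0, against 7016 of 13124 over all genes.

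**Figure D2:**
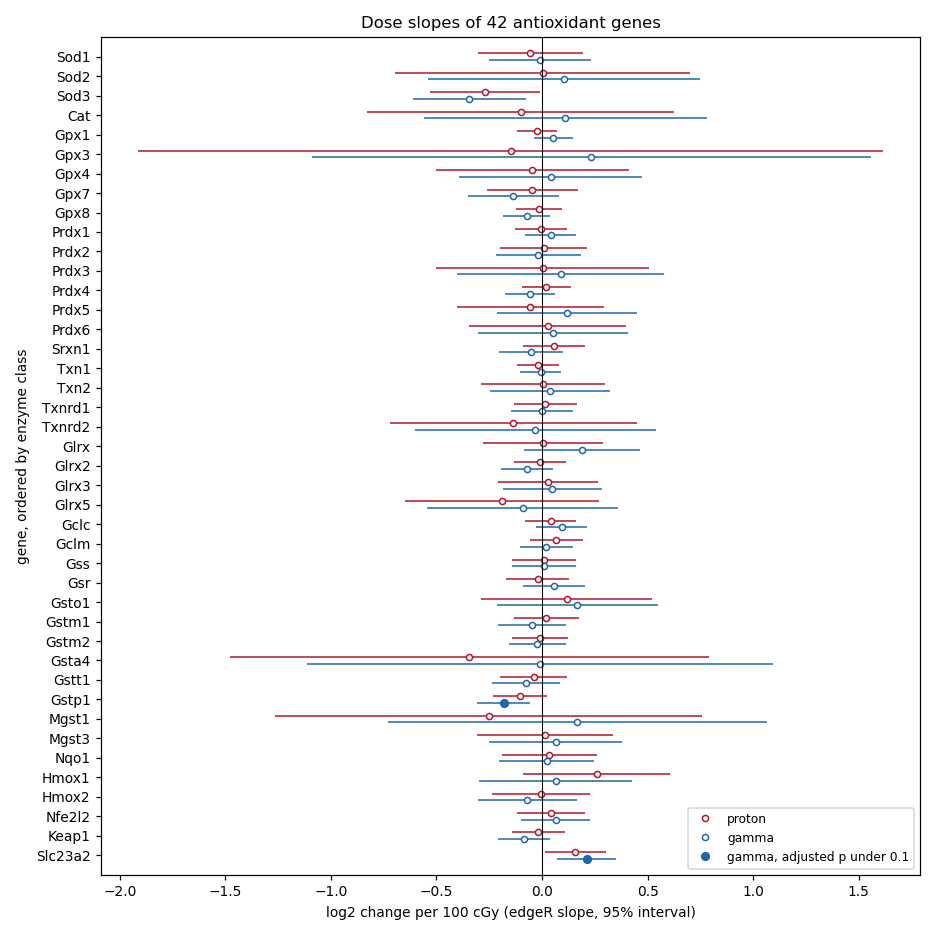
Log2 change per 100 cGy with its 95% interval for the 42 genes after proton (red) and gamma (blue) radiation, from edgeR over 20 mice. Filled points mark adjusted p under 0.1, which holds for Slc23a2 and Gstp1 after gamma radiation and for none after proton radiation, and the widest intervals belong to Gpx3, Gsta4 and Mgst1.

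In both radiation types Slc23a2 and Gstp1 had their highest and lowest counts, respectively, among the mice at 150 and 200 cGy. Slc23a2 had 289 counts in the lowest, 337 in the median and 453 in the highest Gamma mouse, and 299, 349.5 and 435 in the Proton mice. The 4 mice at 150 and 200 cGy held 403 to 453 counts and the 15 others, leaving out the Proton mouse at 75 cGy, 289 to 392, so that the groups did not overlap. Gstp1 had 397 counts in the lowest, 477.5 in the median and 521 in the highest Gamma mouse, and 373, 473 and 526 in the Proton mice. Its 4 mice at the highest doses held 373 to 408 counts, below all 15 others at 412 to 521. Over all genes, 7.47% separated upward and 3.69% downward in this way. Both separations were also seen against all 16 lower mice, for which no share over all genes is given. Sod3 (ENSMUSG00000072941, chr5:52755185-52762644, plus strand) was the third such gene, with 4736 counts in the lowest, 7692.5 in the median and 9271 in the highest Gamma mouse and 5231, 7690 and 9618 in the Proton mice. At 150 and 200 cGy it held 4736 to 5330 counts in the 4 mice against 7076 to 9618 in the 15 others, a ratio of means of 0.623, but the Proton mouse at 75 cGy, with 5264 counts, fell in the range of the high doses.

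Of the 42 genes, these 3 were 1 above and 2 below, and over all genes the same 4 mice stood above the 15 others for 7.47% and below them for 3.69%. Such a separation was thus common and is not read as a trait of these genes. Slc23a2 and Gstp1 had also been called by slopes that used the Gamma mice at these doses. Among the marker lists, the sum of the 6 fibroblast markers, Col1a1 included, was 11011 to 20658 counts in the 4 mice. In the 15 others it was 17485 to 35033, an overlap. The smooth muscle sum held 277295 to 310491 against 238267 to 324494. Of the single markers on all the cell type lists, of 4 to 8 genes each, 3 did separate, and were named after their values were seen. They are to be read against the 7.47% and 3.69% over all genes. The Proton mouse at 75 cGy, left out here, held 9084 counts of Smtn, below all 4 mice. Its counts of Myocd (110) and Col1a1 (9381) were on the side of the lower doses. Myocd, a coactivator of smooth muscle genes, held 395 to 903 counts in the 4 mice against 144 to 361, Smtn, a smooth muscle structural protein, 9742 to 12026 against 12114 to 17901, and the collagen gene Col1a1 4517 to 6209 against 9420 to 17397. The other fibroblast markers overlapped, such as Dcn at 3969 to 9412 against 4329 to 12838 and Lum at 456 to 981 against 508 to 1681. Whether the libraries at these doses were prepared together is not given in the sources used here, so dose and a shared preparation cannot be told apart for these 3 genes. The markers' part in these results was not tested. The Sod3 slope was -0.34 ± 0.13 per 100 cGy after gamma (edgeR, adjusted p = 0.142) and -0.27 ± 0.12 after proton radiation (0.355). DESeq2 called Sod3 down after gamma radiation on all 20 mice, beside Slc23a2 and Gstp1. Without the Proton mouse at 75 cGy it also passed in edgeR, at -0.36 ± 0.12 (edgeR, adjusted p = 0.0717), beside Slc23a2 (0.0542) and Gstp1 (0.0538). Within 0 to 125 cGy the gamma slopes were -0.0029 for Slc23a2, -0.19 for Gstp1 and -0.01 for Sod3, and none of them passed (edgeR, adjusted p of 0.999, 0.727 and 0.998). With offsets for GC content and length the gamma slopes were 0.08, -0.15 and -0.34, and none passed (0.685, 0.442 and 0.327).

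**Figure D3:**
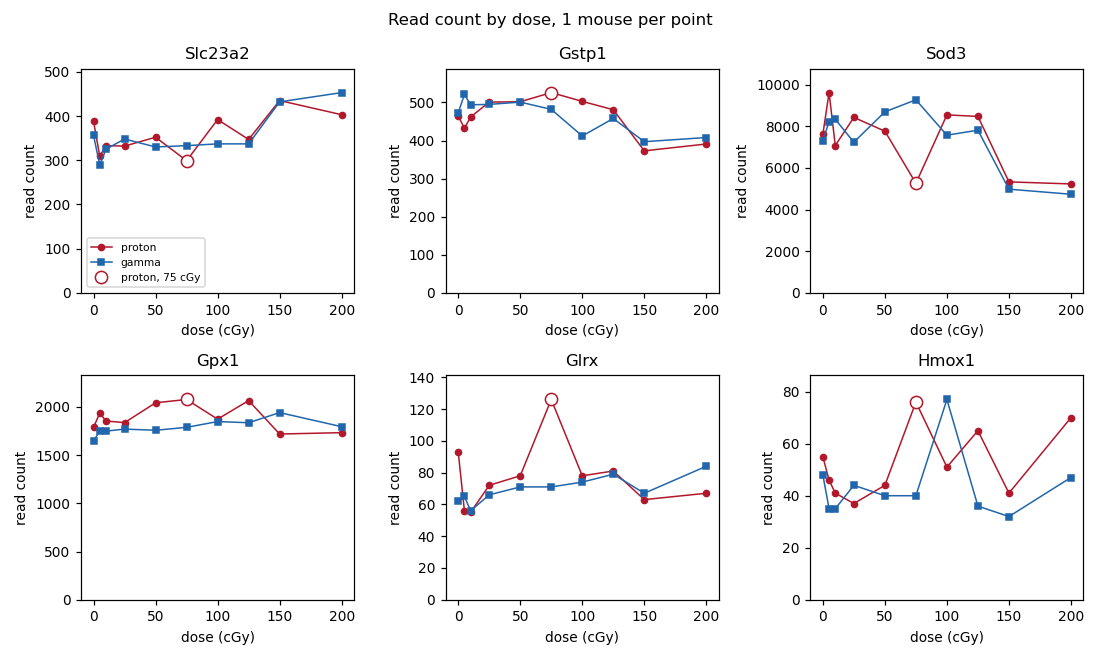
Read count by dose (cGy) in the Proton (red circles) and Gamma (blue squares) mice, 1 mouse per point, with the Proton mouse at 75 cGy as an open circle. Slc23a2 is higher and Gstp1 and Sod3 lower at 150 and 200 cGy in both types, Gpx1 and Glrx climb in the Gamma mice, and Hmox1 shows no order by dose.

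A rank test of order with dose named 2 other genes after gamma radiation. In the exact one-sided permutation test of Spearman's correlation with dose over 10 mice, adjusted over all genes, 1.9% of genes rose and 0.411% fell after gamma radiation, and 0.198% rose and 0% fell after proton radiation (718 genes at an unadjusted exact p under 0.05 for a fall). Gpx1, which reduces hydrogen peroxide with glutathione, rose after gamma radiation (rho = 0.891, exact permutation adjusted p = 0.0633), from 1647 counts at 0 cGy through a median of 1779 to a highest count of 1941 at 150 cGy. Glrx, the cytosolic glutaredoxin that releases glutathione from proteins, also rose (rho = 0.839, exact permutation adjusted p = 0.0991), from 56 in the lowest through 69 in the median to 84 counts in the highest Gamma mouse, that at 200 cGy. These climbs were small, and neither was called without the Gamma mouse at 0, 5, 10, 25, 50 or 75 cGy. Gpx1 (ENSMUSG00000063856) lies at chr9:108241607-108242671 and Glrx (ENSMUSG00000021591) at chr13:75977316-75987599, both on the plus strand in mm9. The edgeR slopes of the same genes after gamma radiation were 0.05 ± 0.04 for Gpx1 and 0.19 ± 0.13 for Glrx and did not pass (adjusted p of 0.608 and 0.507).

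In the Proton mice the trend test called none of the 42 genes, with 1 at an unadjusted p under 0.05. Gpx1 held 1719 in the lowest, 1863.5 in the median and 2077 counts in the highest Proton mouse, with a rho of -0.139, and Glrx held 55, 75 and 126 counts, with a rho of 0.0304. The highest count of both belonged to the mouse at 75 cGy. That a trend passed in 1 type and not in the other does not show a difference, and the difference between the slopes of Gpx1 was -0.08 (95% interval -0.21 to 0.05) and that of Glrx -0.19 (-0.58 to 0.21), neither of which passed in edgeR. Divided by TMM library sizes, the counts gave 0 calls among the 42 genes after gamma radiation, and a filter at a mean count of 50 gave 3, with Gsto1, an omega-class glutathione transferase, as the third.

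By class, the other slopes were close to 0 or had wide intervals, and no class was tested against another. Among the superoxide dismutases, mitochondrial Sod2 and cytosolic Sod1 had gamma slopes of 0.10 and -0.01 beside the lower Sod3. Among the peroxidases, the endoplasmic reticulum enzyme Gpx8 had 493 in the lowest, 556 in the median and 621 counts in the highest Proton mouse and 520, 559.5 and 615 in the Gamma mice, and slopes of -0.01 and -0.07. The peroxiredoxins and sulfiredoxin had slopes from -0.05 to 0.06 after proton and from -0.06 to 0.12 after gamma radiation. Without the Proton mouse at 75 cGy these were -0.07 to 0.05 and -0.07 to 0.11, and proton slopes above 0 went from 5 to 3 of 7. Prdx4, the peroxiredoxin of the endoplasmic reticulum and the class member with the smallest slope p, held 455, 592 and 650 counts in the Proton and 561, 604 and 617 in the Gamma mice. Of the thioredoxin system, Txn1 and its cytosolic reductase Txnrd1 had slopes within 0.02 of 0 in both types.

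Glutathione synthesis and recycling had slopes in a narrow range, from -0.02 to 0.07 after proton and 0.01 to 0.09 after gamma radiation, and none passed. Without the Proton mouse at 75 cGy the ranges were -0.03 to 0.06 and -0.003 to 0.08. Gclc, the catalytic subunit of the rate-limiting ligase, held 200 in the lowest, 249.5 in the median and 262 counts in the highest Proton mouse and 207, 229.5 and 265 in the Gamma mice. Its slope was 0.04 ± 0.06 after proton and 0.09 ± 0.06 after gamma radiation. Nqo1 and Hmox1, widely used as readouts of NRF2, did not pass either. Nqo1, a quinone reductase, held 137, 163.5 and 208 counts in the Proton and 122, 158 and 199 in the Gamma mice, with slopes of 0.04 and 0.02. Hmox1 held 37, 48.5 and 76 in the Proton and 32, 40 and 77 in the Gamma mice, with slopes of 0.26 ± 0.17 and 0.06 ± 0.17. Over both types its 4 mice at 150 and 200 cGy, with 32 to 70 counts, overlapped the 15 others, with 35 to 77.

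The regulators themselves showed no called dose response. Nfe2l2 had 527 in the lowest, 656 in the median and 892 counts in the highest Proton mouse and 488, 601 and 665 in the Gamma mice, with slopes of 0.04 and 0.07. Keap1 held 288, 354 and 410 in the Proton and 312, 363.5 and 378 in the Gamma mice, with slopes of -0.02 and -0.09. A p above the threshold does not show that these genes were constant, so the intervals give the bound. The 95% interval of the slope lay within 0.5 of 0 in 30 of 42 cases for protons and 32 of 42 for gamma rays, and without the Proton mouse at 75 cGy in 37 and 38. The genes that stayed outside in all these fits were Sod3, Gpx3, Gsta4 and Mgst1.

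Between the radiation types, no gene of the 42 differed in slope, and none of all genes did (0% called in edgeR, 254 genes at an unadjusted p under 0.05, 0 called in DESeq2). None of the 42 differences reached an unadjusted p of 0.05. For 28 genes the 95% interval of the difference lay within 0.5 log2 per 100 cGy of 0, and for 36 without the Proton mouse at 75 cGy.

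Between Proton and Gamma mice at matched dose, no gene of the 42 passed either, again with 0% called over all genes (1032 at an unadjusted p under 0.05, 50 called in DESeq2, none of them among the 42). Of the 42 genes, 33 (78.6%) were higher in the Proton mice, against 54.9% of all genes. Without the Proton mouse at 75 cGy this was 20 of 42 (47.6%) against 49.3% of all genes. In that fit edgeR called 11 of all genes higher and 9 lower in the Proton mice, none of them among the 42. The smallest p belonged to Srxn1, the sulfiredoxin that repairs overoxidized peroxiredoxins, with 230 in the lowest, 280 in the median and 335 counts in the highest Proton mouse and 204, 233 and 279 in the Gamma mice. The ranges overlapped, and the log2 difference, proton minus gamma, was 0.23 ± 0.06 (edgeR, adjusted p = 0.285).

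The widest differences among these mice came from the single Proton mouse at 75 cGy. It had the highest count of the 10 Proton mice for 27 of the 42 genes and the lowest for 5, where 28.4% of all genes were highest and 21.3% lowest in that mouse. The mouse was high by a wide margin in 12 genes, which were over 2-fold above the median of the other 9 Proton mice, against 12% of all genes. The same mouse was also the highest for 12 of 16 further NRF2 target genes and 10 of 16 further glutathione genes. It was the highest for only 2 of 8 oxidant-producing enzymes, 2 of 9 NRF2 regulators and 2 of 6 p53 target genes with antioxidant roles. Of 6 other selenoprotein and ascorbate genes, it was the highest for 1. As there was 1 such mouse, these are descriptions with no test. Gpx3 had 11102 counts against a median of 725 in the other 9, 15.2-fold on normalized counts. Gsta4 had 136 against 21 (6.19-fold), Mgst1 1817 against 298 (5.95-fold), Sod2 1852 against 435 (4.23-fold) and Cat 3178 against 753 (4.17-fold). In each of the 5 genes that count was above all other 19 mice.

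The other 7 of these 12 genes were between 2.2-fold and 3.45-fold higher. Txnrd2, the mitochondrial thioredoxin reductase, was 3.45-fold, Prdx3, the mitochondrial peroxiredoxin, 2.96-fold and Glrx5, a mitochondrial glutaredoxin of iron-sulfur cluster assembly, 2.67-fold above the other Proton mice. Gpx4, which reduces lipid hydroperoxides, was 2.86-fold higher, Gsto1 2.58-fold, Prdx6 2.4-fold and Prdx5 2.2-fold. Others of the thioredoxin and glutaredoxin class differed less, where mitochondrial Glrx2 was 0.912-fold, Txn1 1.07-fold, Txnrd1 1.31-fold, Glrx 1.72-fold and Glrx3 1.81-fold. The glutathione synthesis genes were 0.939- to 1.21-fold of the other Proton mice. Sod3 (0.675-fold), Gpx7 (0.745-fold) and Prdx4 (0.752-fold) were the lowest.

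**Figure D4:**
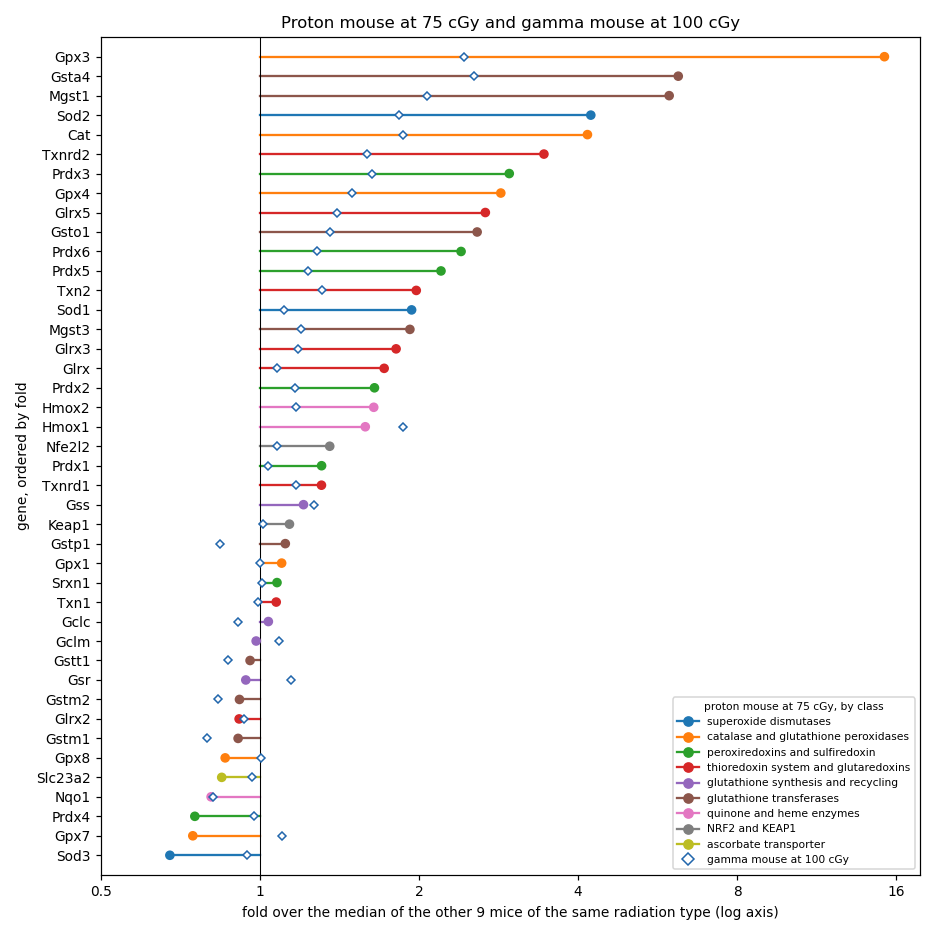
Fold over the median of the other 9 mice of the same radiation type (log axis), for the Proton mouse at 75 cGy (filled points, coloured by class) and the Gamma mouse at 100 cGy (open diamonds). Gpx3 reaches 15.2-fold in the first and 2.44-fold in the second mouse, and Sod3 lies below 1 in both.

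The same genes were high in the Gamma mouse at 100 cGy, the other mouse rich in brown fat and adipocyte markers. It was the highest Gamma mouse for all 12 genes that were over 2-fold higher in the Proton mouse at 75 cGy, where 18.5% of all genes, and 70.4% of all genes over 2-fold in that Proton mouse, were highest in it. Gpx3 had 2541 counts there (2.44-fold of the other Gamma mice), Gsta4 51 (2.54-fold), Mgst1 672 (2.07-fold), Cat 1411 (1.87-fold) and Sod2 774 (1.83-fold). Its cardiac markers were at the low end of all mice (64 counts). Those of the Proton mouse at 75 cGy summed to 15933, against 94 to 323 in the other Proton mice. The part of fat cells or of cardiac muscle in these counts was not tested, and the brown fat and adipocyte sums were high in both mice. Their 7 erythroid markers also summed highest within each type, 9452 against 174 to 7398 in Proton and 13806 against 134 to 11128 in Gamma mice. Their macrophage sums were 2513, against up to 2552 in the other Proton mice, and 2653, against up to 2453 in the other Gamma mice. The part of these cells was not tested either.

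Over the 19 mice without the Proton mouse at 75 cGy, 5 of the 42 genes went up and 2 went down with the mean log2 level of the 8 brown fat markers, where 3.1% of all genes did so upward and 0.663% downward. A gene was counted where Pearson's r and Spearman's rho both passed an adjusted permutation p of 0.1 over 13124 genes. Cat followed the markers closely (r = 0.864, permutation p = 1e-05, adjusted p = 0.000965, rho = 0.858, permutation p = 2e-05, adjusted p = 0.0036), where 1e-05 is the smallest p that the permutations can give. Sod2 (r = 0.874, rho = 0.749), Txn2, the mitochondrial thioredoxin (r = 0.771, rho = 0.677), Gpx3 (r = 0.764, rho = 0.719) and Gpx4 (r = 0.751, rho = 0.675) also rose with them. Gstm2 (r = -0.709, rho = -0.751) and Gstm1 (r = -0.663, rho = -0.658) fell. Without the 2 mice farthest from the median of the markers, r was 0.823 for Cat, 0.799 for Sod2, 0.643 for Gpx3, 0.547 for Gpx4, 0.538 for Txn2, -0.611 for Gstm2 and -0.509 for Gstm1. All 7 kept their sign within each radiation type, Cat with r of 0.93 in 9 Proton and 0.932 in 10 Gamma mice. Dose, the brown fat markers and the genes were not varied independently. The relation was added after the data were seen. The Gamma mouse at 100 cGy, already seen to be high in these markers and in several of these genes, is among the 19, so the p-values are descriptive. Its adipocyte sum was also high (16401 counts). No p is given without the 2 farthest mice.

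**Figure D5:**
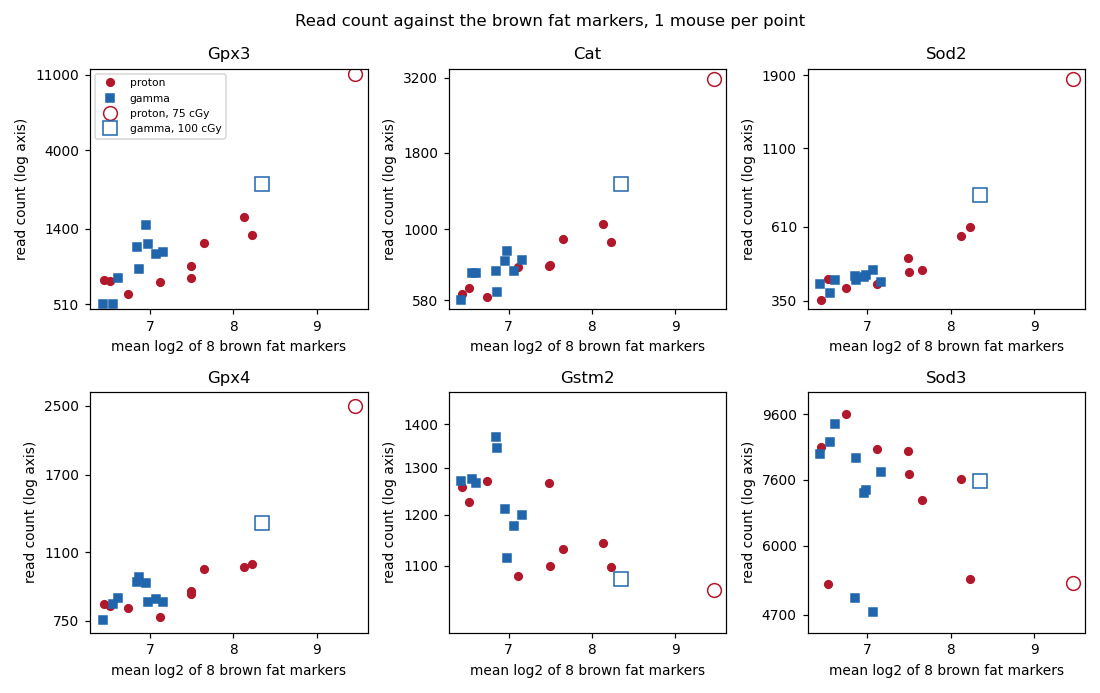
Read count (log axis) against the mean log2 level of 8 brown fat markers, 1 mouse per point, Proton in red and Gamma in blue, with the Proton mouse at 75 cGy and the Gamma mouse at 100 cGy as open symbols. Gpx3, Cat, Sod2 and Gpx4 rise with the markers and Gstm2 goes down, while the low counts of Sod3 are spread along the axis.

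Other genes around the pathway, taken from lists by function, gave few calls in edgeR, to be read against the 1.6% up and 0.16% down after proton and 5.44% up and 2.21% down after gamma radiation over all genes. Of 16 further NRF2 target genes, 1 rose after each type and none fell. It was Ephx1, the microsomal epoxide hydrolase, with 885 in the lowest, 1501 in the median and 2531 counts in the highest Proton mouse, and slopes of 0.79 ± 0.11 after proton (adjusted p = 0.00115) and 0.71 ± 0.12 after gamma radiation (adjusted p = 0.00338). The list had median slopes of -0.10 and -0.01. Without the Proton mouse at 75 cGy 1 gene of this list also fell after each type, Pgd, an enzyme of the pentose phosphate pathway, after proton and Fth1, the ferritin heavy chain, after gamma radiation. None of 16 further glutathione genes passed in either type, and none of 8 oxidant-producing enzymes such as the NADPH oxidase Nox4. Of 9 regulators of NRF2, 1 rose after gamma radiation, Bach1, a repressor that competes with NRF2 at the response element (0.35 ± 0.08, edgeR, adjusted p = 0.0211), and none after proton radiation. Of 6 p53 target genes with antioxidant roles, 2 rose after both types. Sesn2, a sestrin, had slopes of 0.80 after proton and 0.88 after gamma radiation, and Trp53inp1 1.05 and 1.22. Of 6 other selenoprotein and ascorbate genes 1 fell after gamma radiation, Sepn1 (-0.29 ± 0.09, edgeR, adjusted p = 0.089). Within 0 to 125 cGy, Ephx1 passed after both types, Sesn2 and Trp53inp1 after gamma but not after proton radiation, a difference that no test showed, and Bach1 and Sepn1 in neither. With offsets for GC content and length the gamma slope of Bach1 was 0.23 and that of Sepn1 -0.20, and neither passed (edgeR, adjusted p of 0.157 and 0.336).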

How the data were processed

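RNA was polyA-selected from the aorta and sequenced. The deposited counts are whole-number sense-strand read counts per gene and mouse: per the labels and methods, the authors called bases with CASAVA 1.8.1, aligned reads to mm9 with STAR 2.5.2a and resampled libraries to a common depth with PORT. How reads mapping to several genes were counted is not given in the sources used here, so near-identical genes (Gstm1 and Gstm2, Gstp1 and its neighbour Gstp2) may share reads.

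Testing was limited to genes whose mean count reached 5. edgeR 4.0.16 (TMM, robust quasi-likelihood, Benjamini-Hochberg, threshold 0.1) fitted an intercept and a dose slope for each radiation type over all 20 mice. Matched doses were compared with dose as a block. The exact one-sided permutation test ranked counts against dose within a type. Normalized counts were logged as log2(count + 1). P-values of slopes measure the spread around a line, since no dose had replicates within a type. Those at matched dose measure the spread of the proton and gamma differences over the doses. Those of the exact test come from all orders of the doses. The relation with brown fat markers used 100000 permutations and was added after the data were seen. Alternatives were DESeq2 1.42.0, other scalings, filters and dose scales, a dose range of 0 to 125 cGy, GC content and length correction, a brown fat covariate, and leaving out each mouse. Named with counts were genes called by a test, the gene with the smallest slope p in each class, and the 5 farthest from the other Proton mice at 75 cGy. Counts of Nqo1, Nfe2l2 and Srxn1, and of genes at 75 cGy beyond those 5, fall outside this rule and were added after their values were seen. Members and lists were chosen with earlier results of these data known. Tests were checked on simulated data.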

Additional observations from a re-analysis of the deposited data

Results flagged for a closer look

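In a group of 10 mice the highest or lowest mouse was singled out by its gap to the next mouse relative to the group's range. Both were taken on a log2 scale, not on the counts printed here. The ratio had to exceed Dixon's 95% critical value, which chance alone gives in about 1 group of 20. Of 84 groups, made of 42 genes in each radiation type, 32 were singled out. The Proton mouse at 75 cGy accounted for 20 of them. It was the highest Proton mouse for Gpx3 (11102 counts), Cat (3178), Gpx4 (2502), Prdx1 (2207), Sod2 (1852), Mgst1 (1817), Sod1 (1700), Prdx3 (1238), Prdx6 (1218), Prdx5 (1121), Txn2 (1066), Prdx2 (1058), Glrx3 (771), Gsto1 (399), Hmox2 (389), Glrx5 (299), Txnrd2 (226), Mgst3 (204) and Gsta4 (136), and the lowest for Prdx4 (455). The Gamma mouse at 100 cGy was the highest Gamma mouse for Cat (1411), Gpx4 (1299), Sod2 (774), Prdx2 (712), Txn2 (693), Prdx6 (661), Prdx3 (638), Gss (154) and Hmox1 (77). The 3 others were the highest Gamma mouse for Srxn1, at 50 cGy (279), and the lowest Gamma mouse for Nfe2l2 (488) and Gclm (174), both at 5 cGy.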

How the results depend on the processing

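The count of genes called by the proton slope, by the difference between slopes, by matched dose and by the proton trend stayed at 0 of 42 in all alternatives run for each, including those with or without the dose pair as replicate block. The 2 genes called by the gamma slope became 1 without TMM and 0 with a filter at 1 count, dose as a rank, log2(dose + 1), 0 to 125 cGy only, GC content and length correction, or an adjusted p of 0.05. DESeq2 gave 3, with Sod3. Without the Proton mouse at 75 cGy, added after the data were seen, 0 to 125 cGy gave 1 (Gstt1, down) and the GC content correction 1 (Prdx5, up). Leaving out 1 mouse at a time gave 0 to 3: beside the mice named above without which it was 0, it was 1 without the Proton mouse at 0 or 200 cGy or the Gamma mouse at 100 cGy (Slc23a2) or the Proton mouse at 5 or 100 cGy (Gstp1), and 3 without that at 75 cGy. The gamma slope of Slc23a2 turned to -0.0029 within 0 to 125 cGy. The 2 genes called by the gamma trend became 0 with counts divided by TMM library sizes, 0 to 125 cGy only, a filter at 1 count or an adjusted p of 0.05, 1 with the slope of log2(count + 1), and 0 to 1 without 1 mouse, with Gpx1 alone called without the Gamma mouse at 100, 125 or 200 cGy and Glrx alone without that at 150 cGy. The causes were not tested. With 1 mouse per dose and type, slopes could not be separated from mouse-to-mouse differences at the highest doses, and Gsta4 and Hmox1 were limited by depth.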
